A study of Mus musculus with 14 samples.

Results

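The genes of 2 inhibitors of DNA binding, Id2 and Id3, and of 3 E proteins, Tcf3, Tcf4 and Tcf12, were followed through 14 RNA-seq libraries of CD8+ T cells from mouse tumors. They were chosen by symbol, with no measured value in the rule, though earlier results of these data were known. They make up 5 of the 19959 genes listed in the deposited tables. The tumor was E.G7, a mouse lymphoma line that expresses ovalbumin. In the first of 3 experiments, CD8+ tumor-infiltrating lymphocytes (TILs) from Bcl6-RFP reporter mice with subcutaneous tumors were sorted on day 21 into Bcl6+, TIM-3+ and DN populations. DN is not spelled out in the labels. In the other experiments OT-I cells, CD8+ T cells that carry a transgenic receptor for ovalbumin, were sorted from tumors about 8 days after transfer. One compared Prdm1-overexpressing cells with their control (labelled Prdm1neg), the other Bcl6-overexpressing cells with their control (labelled Bcl6neg), and overexpressing and control cells were transferred together. Each of the 7 groups had 2 libraries. The sources used here do not give the vectors, what the control cells carried, the recipients' genotype or the ages of the animals. Nothing says that the 2 libraries of a group came from separate animals, so p-values measure only the spread between these samples, which may be technical.

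E proteins are transcription factors of the basic helix-loop-helix (bHLH) family. They bind DNA as pairs at short sites called E-boxes and switch genes on or off. Id proteins share the helix-loop-helix that makes the pair but lack the basic region that touches DNA, so an Id protein bound to an E protein keeps it off its sites. Tcf3 encodes E2A, with the splice forms E12 and E47, Tcf4 encodes E2-2 and Tcf12 encodes HEB; in spite of their symbols, Tcf3 and Tcf4 are not the TCF/LEF partners of beta-catenin, and Tcf7 (TCF-1) belongs to that other family. In CD8+ T cells of infected mice, Id2 is known for its part in the effector response, and Id3 for marking cells that go on to become long-lived memory cells. Bcl6 and Blimp-1, the product of Prdm1, are transcriptional repressors that oppose each other in lymphocytes.

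The promoters of Id2 and Tcf3 are shown because they stand for the inhibitors and for the E proteins, with Tcf3 the E protein gene that moved most with Bcl6 overexpression, and each holds an E-box, CANNTG, the letters that E proteins are known to bind. Both were taken from RefSeq on GRCm38.p6, the assembly behind mm10, 5′ to 3′ on the gene's own minus strand. Each runs from the far end of a window of 250 bases before the RefSeq start. It stops before the first base that the GENCODE M21 annotation places in an untranslated region. They are in lower case with the E-box in capitals, at chr12:25096254-25096342 for Id2 and chr10:80433648-80433885 for Tcf3.
Id2: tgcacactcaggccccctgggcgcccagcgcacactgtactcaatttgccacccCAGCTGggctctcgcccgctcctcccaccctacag
Tcf3: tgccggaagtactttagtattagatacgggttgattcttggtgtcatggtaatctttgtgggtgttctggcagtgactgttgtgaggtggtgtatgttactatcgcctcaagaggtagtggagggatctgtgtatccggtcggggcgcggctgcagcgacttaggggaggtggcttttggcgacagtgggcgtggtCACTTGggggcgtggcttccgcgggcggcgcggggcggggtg
The E-box of Id2 was CAGCTG, a form E proteins are known to favor, 196 bases before the RefSeq start, and lay inside the longer GENCODE gene. That of Tcf3 was CACTTG, 54 bases before the start. The window of 250 bases before the RefSeq start of Id3 began in an annotated untranslated region, so it is not shown, and it held no E-box. For Tcf12, 3 starts were listed. The window of 1 held no E-box, another held CAAGTG 149 bases before its start, and the last held CAGCTG 240 bases before its start. E-boxes are common: on either strand CANNTG was present in 66.2% of 32841 such windows and CAGCTG, which it includes, in 13.0%. None of the windows of Id2, Id3, Tcf3 and Tcf12 held CACCTG, found in 17.2% of windows, the Bcl6 core TTCCTNGAA, found in 1.31%, or the Blimp-1 core AGNGAAAG, found in 7.3%.

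On mm10, the GENCODE M21 annotation places Id2 (ENSMUSG00000020644) on chromosome 12 from 25093799 to 25097140 on the minus strand, Id3 (ENSMUSG00000007872) on chromosome 4 from 136143497 to 136145755 on the plus strand, and Tcf3 (ENSMUSG00000020167) on chromosome 10 from 80409514 to 80433647 on the minus strand. Tcf12 (ENSMUSG00000032228) lies on chromosome 9 from 71842688 to 72111871 on the minus strand, and Tcf4 (ENSMUSG00000053477) on chromosome 18 from 69343356 to 69689079 on the plus strand. No other annotated gene overlapped Id2, Id3 or Tcf3. Tcf4 overlapped 1 other gene, on its own strand, and Tcf12 overlapped 11, of which 4 lay on the opposite strand. The labels do not say whether strand was used in counting, so reads of Tcf12 and its antisense neighbors cannot be told apart. Strand would not part reads of Tcf4 or Tcf12 from those of overlapping genes on their own strand. Counts are per gene, so E12 and E47, or other splice forms, cannot be told apart either.

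Library totals ranged from 18309162 to 22322079 counts. Levels are given as CPM (counts relative to library size, scaled by TMM within an experiment) and, where genes are set against each other, as FPKM, which also divides by gene length. Samples were tested only within an experiment, with the edgeR quasi-likelihood test over all genes of a mean of at least 1 FPKM and an adjusted p under 0.05. The genes that name the groups went with the labels. Bcl6 stood at 429 and 408 CPM in Bcl6+ TILs, 14.9 and 18.2 CPM in TIM-3+ TILs and 90.8 and 94.9 CPM in DN TILs, and Havcr2, which encodes TIM-3, at 58.9 and 33.3, 1310 and 1370, and 202 and 177 CPM in the same order. Prdm1 stood at 158 and 195 CPM in Prdm1-overexpressing cells against 110 and 90.6 CPM in their controls, a difference that did not pass the test (log2 fold change 0.81, SE 0.19, adjusted p = 0.0923). In the same libraries Bcl6 was also higher, at 19.9 and 20.7 CPM in Prdm1-overexpressing cells against 7.79 and 8.96 CPM in their controls. Bcl6 stood at 94.2 and 67.6 CPM in Bcl6-overexpressing cells against 4.11 and 3.84 CPM in their controls. Markers of CD8+ T cells had counts in every group, 8 of 8.

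Among the TILs, Id2 and Id3 took opposite orders. TIM-3+ cells had the most Id2 and almost no Id3, Bcl6+ cells had the least Id2 and the most Id3, and DN cells stood between them in both. The 3 E protein genes were all higher in Bcl6+ than in TIM-3+ cells, Tcf12 by the most. All 5 genes passed the test between Bcl6+ and TIM-3+ TILs, where 38.6% of the 9748 genes tested did. Tcf4 was near the filter of 1 FPKM and entered the test through its level in Bcl6+ cells. In bulk RNA, fewer cells that express a gene and less of its RNA in each cell cannot be told apart.

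Id2 measured 291.2 and 311.2 CPM in Bcl6+ TILs, 1416 and 1460 CPM in TIM-3+ TILs and 675.6 and 650.3 CPM in DN TILs. The libraries of each population lay close together and no 2 populations overlapped. Id2 fell in Bcl6+ against TIM-3+ cells (log2 fold change -2.26, SE 0.06, adjusted p = 3.3e-12) and against DN cells (-1.14, SE 0.06, adjusted p = 1.9e-08), and rose in TIM-3+ against DN cells (1.12, SE 0.06, adjusted p = 6.9e-09).

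Id3 measured 25.5 and 34.9 CPM in Bcl6+ TILs, 0.590 and 0.343 CPM in TIM-3+ TILs and 16.7 and 14.6 CPM in DN TILs. The TIM-3+ values rest on 12 and 7 reads, so Id3 was near the limit of detection there. Bcl6+ cells held 63.9 times the Id3 of TIM-3+ cells (log2 fold change 5.997, SE 0.39, adjusted p = 3.2e-08), which ranked 28 from the top of the 9748 genes. In TIM-3+ against DN cells Id3 fell by 5.05 (SE 0.38, adjusted p = 3.7e-07), 25 from the bottom. The step between Bcl6+ and DN cells was smaller, at 0.95 (SE 0.28, adjusted p = 0.0368). That call was lost with no filter on low genes (0.92, adjusted p = 0.0644), and when Bcl6+ replicate 2 (0.71, adjusted p = 0.246), DN replicate 1 (1.05, adjusted p = 0.152) or DN replicate 2 (0.85, adjusted p = 0.25) was left out.

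**Figure D1:**
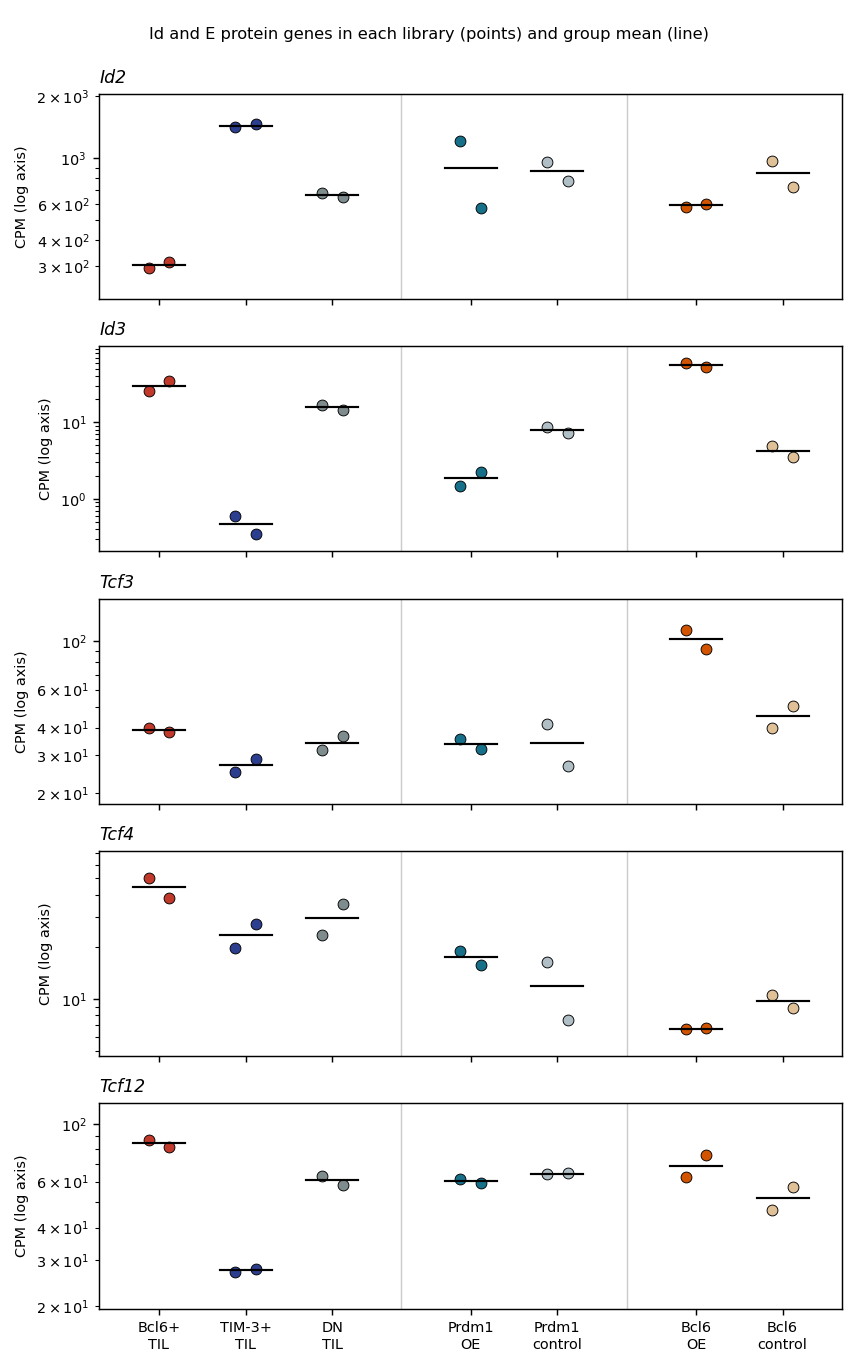
Levels of Id2, Id3, Tcf3, Tcf4 and Tcf12 in each library, in TMM-scaled CPM on a log axis that differs between panels. Points are single libraries, 2 a group, and lines are group means; OE stands for overexpressing, and grey lines part the 3 experiments, which were scaled separately. Among the TIL populations, TIM-3+ cells have the most Id2 and, at 0.590 and 0.343 CPM, the least Id3.

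The E protein genes followed the order of Id3, over a narrower range. Tcf12 measured 86.8 and 81.3 CPM in Bcl6+ TILs, 27.0 and 27.9 CPM in TIM-3+ TILs and 63.0 and 58.2 CPM in DN TILs, with no overlap between populations. It rose in Bcl6+ against TIM-3+ cells (log2 fold change 1.62, SE 0.14, adjusted p = 6.9e-07) and fell in TIM-3+ against DN cells (-1.15, SE 0.14, adjusted p = 3.5e-05). Bcl6+ and DN cells differed by 0.47 (SE 0.14, adjusted p = 0.0341), a call lost when any 1 of their 4 libraries was left out (0.42 to 0.53, adjusted p = 0.0604 to 0.238).

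Tcf4 measured 50.1 and 38.6 CPM in Bcl6+ TILs, 19.7 and 27.0 CPM in TIM-3+ TILs and 23.6 and 35.6 CPM in DN TILs. Bcl6+ libraries lay above the others, and the TIM-3+ and DN libraries overlapped. Tcf4 rose in Bcl6+ against TIM-3+ cells (log2 fold change 0.92, SE 0.24, adjusted p = 0.00762). It averaged 1.51 FPKM in Bcl6+, 0.83 FPKM in TIM-3+ and 1.02 FPKM in DN TILs. Its place above the filter of 1 FPKM thus rested on the Bcl6+ libraries, where it was highest, so the call is weak support. With no filter Tcf4 was still called (0.87, adjusted p = 0.0182). The call was lost without Bcl6+ replicate 1 (0.73, adjusted p = 0.0676) and without TIM-3+ replicate 1 (0.71, adjusted p = 0.0632). Against DN cells it passed the test neither in Bcl6+ cells (0.58, 95% interval 0.07 to 1.10, adjusted p = 0.136) nor in TIM-3+ cells (-0.34, 95% interval -0.86 to 0.18, adjusted p = 0.331). For plasmacytoid dendritic cells, which depend on E2-2, 8 markers summed to 822 to 906 CPM in Bcl6+, 955 to 994 CPM in TIM-3+ and 708 to 734 CPM in DN TILs. Of these, Siglech stood at 3.0 and 3.87 CPM in Bcl6+, 0.0492 and 2.55 CPM in TIM-3+ and 21.2 and 18.3 CPM in DN TILs, and Klk1 was at 0 in TIM-3+ cells. The sums were thus made up mostly of markers other than Siglech, and were lowest in DN TILs, where Siglech was highest. The part of plasmacytoid dendritic cells in the values of Tcf4 was not tested.

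Tcf3 moved least. It measured 39.7 and 38.3 CPM in Bcl6+ TILs, 24.9 and 28.7 CPM in TIM-3+ TILs and 31.6 and 36.5 CPM in DN TILs. Populations did not overlap, and Tcf3 rose in Bcl6+ against TIM-3+ cells (log2 fold change 0.54, SE 0.18, adjusted p = 0.0311). That call was lost without Bcl6+ replicate 1 (0.52, adjusted p = 0.0871), Bcl6+ replicate 2 (0.57, adjusted p = 0.0605) or TIM-3+ replicate 1 (0.44, adjusted p = 0.164), and with no filter (0.48, adjusted p = 0.074). Against DN cells the difference was 0.20 in Bcl6+ cells (95% interval -0.19 to 0.59, adjusted p = 0.558) and -0.34 in TIM-3+ cells (95% interval -0.73 to 0.05, adjusted p = 0.19). In all, 3 of the 5 genes passed between Bcl6+ and DN cells, where 14.2% of all genes did, and 3 of 5 between TIM-3+ and DN cells, where 28.2% did. The 3 comparisons share libraries, so these counts are not independent.

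Markers of other cells also differed between the TIL populations. The summed level of 8 macrophage and monocyte markers was 227 to 261 CPM in Bcl6+, 42.9 to 60.2 CPM in TIM-3+ and 139 CPM in both DN libraries. For B cells, which use E2A and Id3, 8 markers summed to 23.3 to 25.7, 1.52 to 2.21 and 8.35 to 12.2 CPM in the same order, with Cd79b at 0 in TIM-3+ and Fcer2a at 0 in Bcl6+ cells. NK and innate lymphoid cells, which depend on Id2, had 4 of 8 markers in the table, summing to 283 to 292, 49.2 to 56.2 and 119 to 124 CPM; Ncr1 was not listed. For lymphoma and thymocytes, 5 of 6 markers were in the table, with Rag2 at 0 in DN cells. Their sums were 51.3 to 56.3 CPM in Bcl6+, 36.1 to 39.6 CPM in TIM-3+ and 52.9 to 65.7 CPM in DN TILs. The 6 stroma and endothelium markers summed to 85.2 to 113, 37.8 to 46.2 and 84.8 to 96.0 CPM in that order. The part of such cells in the values of the 5 genes was not tested.

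In Prdm1-overexpressing cells neither Id2 nor the E protein genes differed from control beyond the test's threshold, and Id3 was lower in both libraries without passing it. Of the 4 member genes tested, none passed in this fit, which had no replicate block, where 1.36% of 9947 genes (135) did. That background itself turned on single libraries, with 643 genes called without Prdm1-overexpressing replicate 1, 7 without control replicate 1 and 3 without control replicate 2. At an unadjusted p under 0.05, 1 of the 4, Id3, passed, where 19.2% of all genes did. With replicate number as a block in the edgeR fit, Id3 passed (adjusted p = 0.00154) and 1659 genes were called. The outcome for Id3 thus depended on whether the fit was paired.

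Id3 measured 1.47 and 2.22 CPM in Prdm1-overexpressing cells, on 25 and 40 reads, against 8.65 and 7.195 CPM in control cells, on 161 and 143 reads. Both overexpressing libraries lay below both controls. The log2 fold change was -2.10 (SE 0.47, adjusted p = 0.0836), 11 from the bottom of the genes tested. It passed with DESeq2 (-2.14, adjusted p = 0.00621), with relative log expression scaling (-2.13, adjusted p = 0.0459), with total count scaling (-2.18, adjusted p = 0.0359) and with limma on log2(FPKM + 1) (-1.46, adjusted p = 0.0283). With replicate number added to the edgeR fit as a block it also passed (-2.109, adjusted p = 0.00154), and 1659 genes were called. Overexpressing and control cells were transferred together, but nothing says that a replicate number marks a shared animal. Whether the libraries are paired is thus not known. It did not pass with upper quartile scaling (-2.12, adjusted p = 0.0541), with no filter (-2.25, adjusted p = 0.105) or with any 1 of the 4 libraries left out (-2.49 to -1.83, adjusted p = 0.122 to 0.232).

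Id2 measured 1218 and 575.1 CPM in Prdm1-overexpressing cells and 957.6 and 772.5 CPM in control cells. The overexpressing libraries lay on either side of both controls, more than 2 times apart, and the log2 fold change was 0.05 (95% interval -0.71 to 0.81, adjusted p = 0.948), which changed sign under 8 alternatives, without overexpressing replicate 1 (-0.59, adjusted p = 0.0683) and without control replicate 2 (-0.10, adjusted p = 0.93). Cd8b1, a coreceptor gene, was likewise spread, at 445 and 197 CPM in the same overexpressing libraries and 437 and 302 CPM in the controls; a link between these genes was not tested.

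Among the E protein genes, Tcf3 measured 35.5 and 32.03 CPM in Prdm1-overexpressing cells, within the 41.8 and 26.5 CPM of the controls (log2 fold change -0.02, 95% interval -0.66 to 0.63, adjusted p = 0.98). Tcf12 measured 61.4 and 59.5 CPM in overexpressing and 63.9 and 64.6 CPM in control cells, with both overexpressing values just below both controls (-0.09, 95% interval -0.51 to 0.33, adjusted p = 0.831). Tcf4 measured 19.02 and 15.7 CPM in overexpressing and 16.3 and 7.50 CPM in control cells and averaged under 1 FPKM, so it was left out of the test; with no filter its log2 fold change was 0.40 (SE 0.39, adjusted p = 0.691). Macrophage markers summed to 143 to 260 CPM in overexpressing and 399 to 457 CPM in control cells. The 6 lymphoma and thymocyte markers summed to 85.9 to 87.1 CPM in overexpressing and 34.7 to 61.6 CPM in control cells. The part of such cells was not tested.

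Bcl6-overexpressing cells had more Id3 and Tcf3 and less Id2 than their controls. Of the 4 member genes tested, 3 passed, where 48.8% of 9669 genes did, so a call by itself says little here and the sizes are what set the genes apart from each other.

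Id3 measured 58.8 and 52.6 CPM in Bcl6-overexpressing cells, on 1243 and 1157 reads, against 4.86 and 3.46 CPM in control cells, on 98 and 73 reads. It rose 13.4-fold (log2 fold change 3.74, SE 0.27, adjusted p = 3.1e-10) and ranked 143 from the top. Tcf3 measured 112.6 and 92.3 CPM in overexpressing cells and 39.7 and 50.5 CPM in control cells. The groups lay well apart, with a 2.27-fold rise (1.18, SE 0.20, adjusted p = 5.9e-05), which ranked 1324 from the top of 9669 genes. Both calls held under each alternative and with any 1 library left out.

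Id2 measured 579.4 and 602.1 CPM in Bcl6-overexpressing cells and 967.7 and 726.8 CPM in control cells. The groups did not overlap, and Id2 fell by 0.52 (SE 0.18, adjusted p = 0.0195), 2329 from the bottom of 9669 genes. The fall was not called without control replicate 1, the higher control (-0.31, adjusted p = 0.41), with no filter (-0.41, adjusted p = 0.0548) or with limma on log2(FPKM + 1) (-0.42, adjusted p = 0.1).

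Tcf12 measured 62.2 and 76.1 CPM in Bcl6-overexpressing and 46.7 and 57.0 CPM in control cells. The difference did not pass the test (log2 fold change 0.41, 95% interval -0.001 to 0.83, adjusted p = 0.0912), and it did pass with no filter (0.52, adjusted p = 0.0419) and without overexpressing replicate 1 (0.55, adjusted p = 0.0262). Tcf4 measured 6.67 and 6.77 CPM in overexpressing and 10.51 and 8.86 CPM in control cells, under 1 FPKM on average and not tested; with no filter its log2 fold change was -0.42 (SE 0.33, adjusted p = 0.314). Macrophage and monocyte markers summed to 527 to 612 CPM in overexpressing and 129 to 132 CPM in control cells, while the 6 of 8 B cell markers in the table summed to 9.27 to 13.8 and 10.3 to 10.4 CPM. For lymphoma and thymocytes, 4 of 6 markers were in the table, with Rag1 at 0 in overexpressing cells. These 4 summed to 22.1 to 22.8 CPM in overexpressing and 51.0 to 55.5 CPM in control cells. Stroma and endothelium markers summed to 63.9 to 68.2 and 105 to 112 CPM. The part of any of these cells in the values of the 5 genes was not tested.

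**Figure D2:**
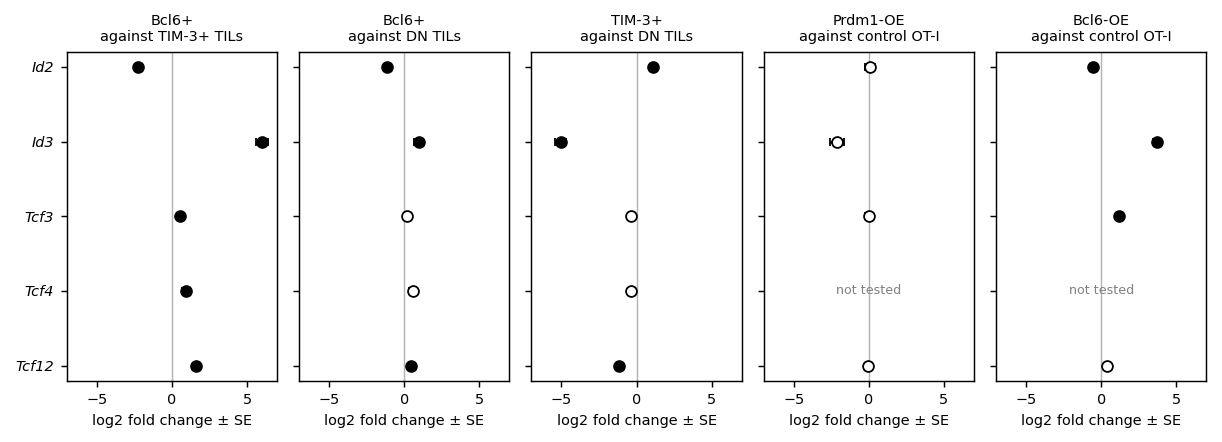
Log2 fold change of each gene in the 5 comparisons, with bars for the SE of the edgeR fit on 2 libraries a group (many bars are smaller than their point). Filled points passed the test at an adjusted p under 0.05 and open points did not; Tcf4 was under 1 FPKM in both OT-I experiments. Id3 has the widest range, at 5.997 between Bcl6+ and TIM-3+ TILs and -5.05 between TIM-3+ and DN TILs.

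The balance of Id2 to Id3 was taken as the ratio of their FPKM in each library. It was 8.41 and 6.55 in Bcl6+ TILs, 1762 and 3124 in TIM-3+ TILs and 29.7 and 32.8 in DN TILs. On the log2 scale the means were 2.89 ± 0.25, 11.20 ± 0.58 and 4.97 ± 0.10 (SD, n = 2 each). The ratio was 316 times lower in Bcl6+ than in TIM-3+ cells, 4.21 times lower than in DN cells, and 75.1 times higher in TIM-3+ cells than in DN ones. No test was made on the ratio, which is built from genes tested above, and the TIM-3+ values carry the counting error of 12 and 7 reads. In OT-I cells the ratio was 608 and 190 with Prdm1 overexpression against 81.4 and 78.9 in its controls, a mean 4.24 times higher with no overlap (log2 difference 2.09; 1.25 without overexpressing replicate 1 and 2.92 without overexpressing replicate 2), and 7.24 and 8.41 with Bcl6 overexpression against 146 and 154 in its controls, 19.3 times lower with no overlap. With 1 FPKM added to both genes, which damps ratios set by a near-absent Id3, the log2 difference was -6.03 in place of -8.30 for Bcl6+ against TIM-3+ cells, 4.04 in place of 6.23 for TIM-3+ against DN cells, 1.32 in place of 2.09 for Prdm1 overexpression and -3.75 in place of -4.27 for Bcl6 overexpression.

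Id2 supplied most of the Id transcripts in all libraries. Id3 made up 10.6% and 13.2% of the summed Id2 and Id3 FPKM in Bcl6+ TILs, 0.0567% and 0.032% in TIM-3+ TILs and 3.25% and 2.96% in DN TILs. Its share was 0.164% and 0.523% in Prdm1-overexpressing cells against 1.21% and 1.25% in controls, and 12.1% and 10.6% in Bcl6-overexpressing cells against 0.679% and 0.644% in controls. Thus Id3 stayed the smaller of the 2 even where it was highest. Id1 was scarce, at 0.0932 to 2.47 CPM in the TIL and Prdm1 experiments; it rose with Bcl6 overexpression, to 4.35 and 5.0 CPM against 1.73 and 1.18 CPM (log2 fold change 1.68, SE 0.47, adjusted p = 0.00525). Id4 was at 0 in both Bcl6-overexpressing libraries and at most 1.94 CPM where listed.

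The summed FPKM of Id2 and Id3 over that of the 3 E protein genes sets inhibitors against their targets at the level of RNA. It was 7.75 and 9.12 in Bcl6+ TILs, 67.3 and 60.5 in TIM-3+ TILs and 22.5 and 19.5 in DN TILs, without overlap. With Bcl6 overexpression it was 8.42 and 9.87, against 30.2 and 18.2 in the controls. With Prdm1 overexpression it was 37.3 and 19.2, overlapping the 26.4 and 29.2 of the controls. The level of this ratio depends on the length given to each gene: with the longest transcript of each it was 5.07 and 6.10 in Bcl6+, 47.9 and 42.8 in TIM-3+ and 15.2 and 13.3 in DN TILs, in the same order. Transcript ratios do not give the amounts of protein.

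**Figure D3:**
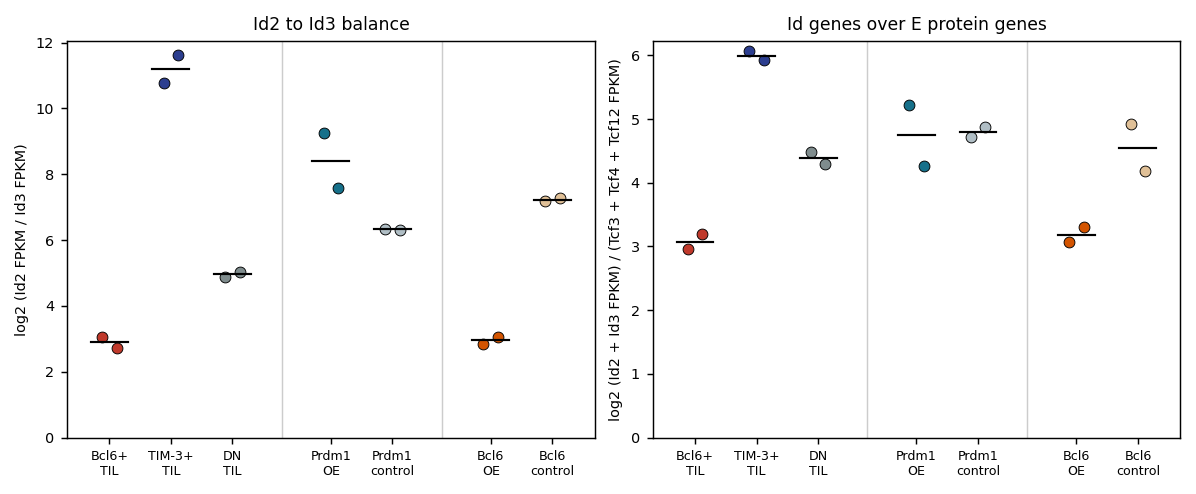
Left, log2 of Id2 FPKM over Id3 FPKM; right, log2 of the summed FPKM of Id2 and Id3 over the summed FPKM of Tcf3, Tcf4 and Tcf12. Points are single libraries, lines are group means (n = 2), and OE stands for overexpressing. Bcl6+ TILs at 3.07 and 2.71 and Bcl6-overexpressing cells at 2.86 and 3.07 have the lowest Id2 to Id3 values of their own experiments, which were processed separately.

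The make-up of the E protein pool also differed. By FPKM, Tcf3 made up 57.0% and 58.8% of the pool in Bcl6+ TILs, 71.5% and 71.9% in TIM-3+ TILs and 61.4% and 64.1% in DN TILs. The share was 65.4% and 64.3% in Prdm1-overexpressing cells, inside the 68.7% and 59.7% of the controls, and 86.8% and 81.6% in Bcl6-overexpressing cells, above the 74.3% and 75.8% of the controls. Shares depend on the length each gene is given. Relative to Id2, the lengths behind the deposited FPKM matched those of all annotated exons together. These are 27382 bases for Tcf4 and 15529 for Tcf12, against 8577 and 6299 in their longest transcripts. That is a reduction of 3.19 and 2.47 times, while Tcf3 went from 4039 to 2950 (1.37 times). With longest transcripts, Tcf3 averaged 41.7% and Tcf12 42.1% of the pool in Bcl6+ TILs, 56.2% and 27.0% in TIM-3+ TILs and 46.8% and 39.3% in DN TILs, so the lead of Tcf3 in Bcl6+ cells by FPKM was not seen with these lengths, where the 2 genes were level. The log2 fold change of a single gene's level between groups does not depend on its length, while group differences in its share do.

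**Figure D4:**
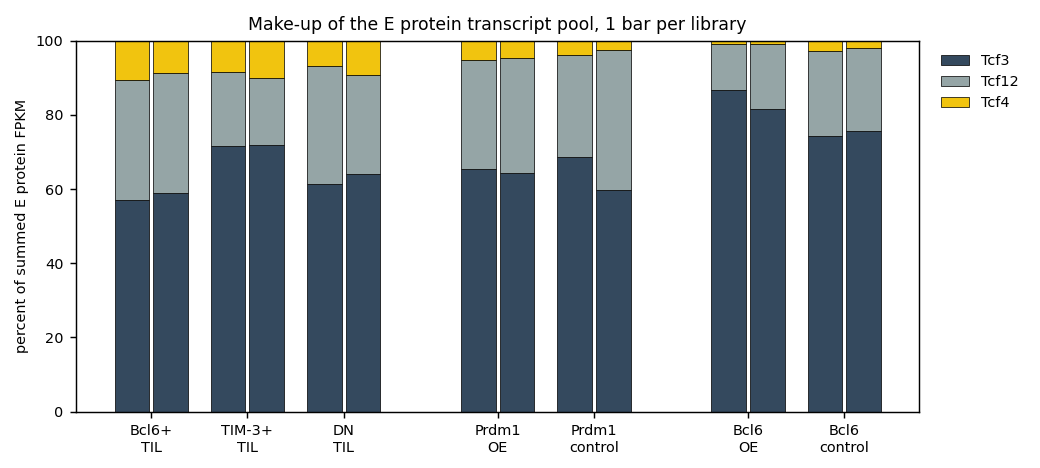
Share of Tcf3, Tcf12 and Tcf4 in the summed FPKM of the E protein genes, in percent, with 1 bar per library and OE for overexpressing. Tcf3 takes 71.5% and 71.9% in TIM-3+ TILs against 57.0% and 58.8% in Bcl6+ TILs, and 86.8% and 81.6% in Bcl6-overexpressing cells.

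Genes around the Id and E proteins were read from 6 lists, whose counts stand beside the share of all genes called: 38.6% in Bcl6+ against TIM-3+ TILs, 14.2% in Bcl6+ against DN TILs, 28.2% in TIM-3+ against DN TILs, 1.36% with Prdm1 overexpression and 48.8% with Bcl6 overexpression. The lists were chosen with earlier results of these data known, so their counts and medians are descriptions and not independent support. Of 14 effector genes that are known to go with Id2 in CD8+ T cells, 2 were higher and 12 lower in Bcl6+ against TIM-3+ TILs, with a median log2 fold change of -1.79 against 0.01 for all genes tested. Ifng, the cytokine interferon gamma, fell by 3.31 (SE 0.08, adjusted p = 9.8e-13) and Gzmb, a granzyme, by 5.10 (SE 0.15, adjusted p = 9.9e-12). The pore-forming Prf1 fell by 3.598 (SE 0.05, adjusted p = 5.0e-15), and S1pr5, a receptor for sphingosine-1-phosphate, rose by 3.58 (adjusted p = 5.3e-06). Against DN cells, 1 of the 14 was higher and 9 lower in Bcl6+ cells (median -0.92), and 10 were higher and 1 lower in TIM-3+ cells (median 0.68). With Bcl6 overexpression none of 13 was higher and 7 were lower (median -0.65), a share of 53.8% that is near the 48.8% of all genes, among them Prf1 (-1.16), Klrg1 (-1.48), Gzmb (-1.13) and Prdm1 (-1.36). With Prdm1 overexpression 1 of 14 passed, Il2ra, a chain of the interleukin-2 receptor, at 1.02 (SE 0.18, adjusted p = 0.048). The list holds Prdm1 itself.

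Of 14 memory and progenitor genes that are known to go with Id3, 12 were higher and 1 lower in Bcl6+ against TIM-3+ TILs (median 2.16). The list holds Bcl6, which named the sort. Cxcr5, a follicle-homing receptor, rose by 7.09 (SE 0.22, adjusted p = 2.2e-11), Tcf7 by 4.42 (SE 0.12, adjusted p = 3.8e-12) and the homing receptor Ccr7 by 4.01 (SE 0.06, adjusted p = 5.2e-15). Against DN cells, 7 were higher and 2 lower in Bcl6+ cells (median 0.45), with S1pr1 at -2.16, and 1 was higher and 11 lower in TIM-3+ cells (median -2.31). With Bcl6 overexpression 7 of 14 were higher and 2 lower (median 0.46), counting Bcl6 itself; Cxcr5 rose by 4.10, the quiescence factor Klf2 by 2.23 and Tcf7 by 1.81. With Prdm1 overexpression none of 13 was higher and 4 were lower (median -0.60), among them Tcf7 (-2.39, adjusted p = 0.00591), Slamf6 (-1.31, adjusted p = 0.0225) and Ccr7 (-0.97, adjusted p = 0.0362).

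Of 20 genes on which E proteins are known to act in lymphocytes, 12 were tested in TILs and 10 in each OT-I experiment, and the rest were under 1 FPKM or not in the tables. In Bcl6+ against TIM-3+ TILs 7 rose and 3 fell (median 0.66), with Cxcr5, the interleukin-7 receptor Il7r (1.84) and the gut-homing receptor Ccr9 (2.54) among the first and Cd8a (-1.003), the cell cycle inhibitor Cdkn1a (-1.75) and Notch1 (-1.39) the second. Against DN cells, 1 rose and 6 fell in Bcl6+ cells (median -0.34), and 3 rose and 7 fell in TIM-3+ cells (median -0.76). With Bcl6 overexpression 8 of 10 rose and 1 fell (median 0.997). Besides Cxcr5 these included Socs1, an inhibitor of cytokine signaling (1.70, adjusted p = 7.7e-07), Cdkn1a (1.24), and the T cell factor Bcl11b (1.19), while Il7r fell by 0.51. Notch1 rose too (0.78, adjusted p = 0.00402), so Cdkn1a and Notch1 had opposite signs in Bcl6-overexpressing cells and in Bcl6+ against TIM-3+ TILs. With Prdm1 overexpression 1 of 10 passed, Socs3 (-1.11, adjusted p = 0.0463).

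**Figure D5:**
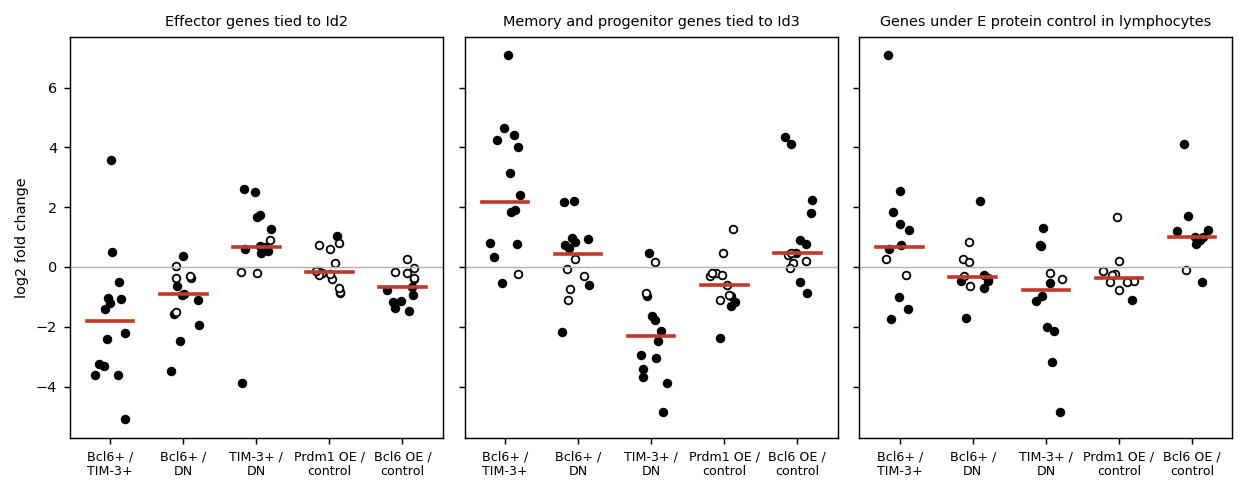
Log2 fold changes of the tested genes of 3 lists in each comparison. Each point is 1 gene, filled where it passed at an adjusted p under 0.05 and open where it did not, the red line is the median, and OE stands for overexpressing. Medians of the memory and progenitor list are 2.16 in Bcl6+ against TIM-3+ TILs and -2.31 in TIM-3+ against DN TILs.

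Signals known to act on Id genes were split. In Bcl6+ against TIM-3+ TILs 8 of 22 rose and 5 fell (median 0.07), 59.1% against 38.6% of all genes. Egr2, a factor induced by the antigen receptor, rose by 1.67 (SE 0.13, adjusted p = 1.8e-07), while Egr1 fell by 0.535 (SE 0.07, adjusted p = 3.0e-05). Egr3 did not pass (0.378, adjusted p = 0.574). Rbpj, the DNA-binding partner of Notch, fell by 1.31 (SE 0.07, adjusted p = 4.3e-09), as did the TGF-beta receptor Tgfbr2 (-0.70, adjusted p = 5.0e-06). Against DN cells, 3 rose and 4 fell in Bcl6+ cells, with Egr2 at 1.48 and Stat3 at 0.45, and 5 rose and 5 fell in TIM-3+ cells, with Rbpj at 0.95, shares of 31.8% and 45.5% against 14.2% and 28.2%. With Bcl6 overexpression 6 of 21 rose and 4 fell (median -0.22), 47.6% against 48.8% of all genes and so no more than background, with Notch2 at 1.60, Foxo1 at 0.999, Egr1 at 0.83 and the TGF-beta repressor Skil at -0.98. Egr2 did not pass there (-0.335, adjusted p = 0.137). With Prdm1 overexpression none of 21 passed, and 6 (28.6%) had an unadjusted p under 0.05, as did 19.2% of all genes.

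Of 15 partners and cofactors of E proteins tested, 5 rose and 2 fell in Bcl6+ against TIM-3+ TILs, 46.7% against 38.6% of all genes. Ssbp2 rose by 2.998 (SE 0.24, adjusted p = 2.5e-07) and Lmo4 by 1.94 (SE 0.24, adjusted p = 1.7e-05), both parts of the LIM-domain complex built on Ldb1. Usp1, an enzyme known in human bone tumor cells to shield Id proteins from degradation, fell by 1.07 (SE 0.21, adjusted p = 0.00111), and Huwe1, a ubiquitin ligase, rose by 0.35. Usp1 was the only one to pass in Bcl6+ against DN cells (-0.74, adjusted p = 0.0309), 6.7% against 14.2%. In TIM-3+ against DN cells 2 rose and 4 fell, 40% against 28.2%, with Ssbp2 at -2.66 and Lmo4 at -1.30. With Bcl6 overexpression 5 rose and 2 fell, 46.7% against 48.8%, with Ldb1 at 1.67, Huwe1 at 0.85, and the corepressor Cbfa2t2 at -0.72. With Prdm1 overexpression none passed, and 4 (26.7%) had an unadjusted p under 0.05. The shares of this list were thus near those of all genes between Bcl6+ and TIM-3+ TILs and with Bcl6 overexpression.

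The other HLH and bHLH factors, 22 tested of 35 listed, did not move as 1 group. In Bcl6+ against TIM-3+ TILs 5 rose and 3 fell, 36.4% against 38.6% of all genes and so no more than background, with the repressor Bhlhe41 at 2.97 (SE 0.45, adjusted p = 0.000127) and Mxd3, a partner of Max, at -3.20 (SE 0.54, adjusted p = 0.000301). Hif1a, the oxygen-sensing factor, rose by 0.51 and Myc by 0.66. Bhlhe41 (1.57) and Hif1a (0.54) were also the 2 that rose in Bcl6+ against DN cells (9.1% against 14.2%), and 4 rose and 5 fell in TIM-3+ against DN cells (40.9% against 28.2%), with Myc at -0.66. With Bcl6 overexpression 9 rose and 5 fell, 63.6% against 48.8%, with Usf2 at 1.66, Mlxip at 1.66, Srebf1, a regulator of lipid synthesis, at 1.22, and Hif1a at -1.30. With Prdm1 overexpression none passed, and 7 (31.8%) had an unadjusted p under 0.05.

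Genes whose pattern was most like each member's were found by Pearson's r on log2(CPM + 1) over the 14 libraries, centered on the mean of their experiment, among 8794 genes tested in all 3 experiments. The libraries share groups, so r is a description. Nearest to Id2 were Chsy1 (0.992), Ifng (0.975) and Capzb (0.969), and nearest to Id3 were Dapl1 (0.968), Ddit4 (0.967) and Cxcl2 (0.964). For Tcf3 they were Dnlz (0.967), Hdac5 (0.965) and Vat1 (0.961), for Tcf12 Smg1 (0.972), Bach2 (0.971) and Etv6 (0.964), and for Tcf4, with the weakest likeness, Samd8 (0.938), Ccdc84 (0.900) and Uros (0.871). The gene most opposite to Id3 was Rrm2 (-0.984), a subunit of ribonucleotide reductase, and to Tcf12 Aurkb (-0.981), a mitotic kinase. For Id2 it was Zbtb20 (-0.952), for Tcf3 P4ha1 (-0.957) and for Tcf4 Fam120a (-0.904).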

How the data were processed

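RNA-seq was made from 14 libraries of sorted CD8+ T cells, 2 for each of 7 groups. Per the file headers, the deposited tables hold a count and an FPKM value for each gene and library. Per the submitters' processing notes, the build was mm10 and the tools were featureCounts, Subread, Bowtie2, DESeq2 and edgeR for TILs and RSEM, HISAT2, DESeq2 and featureCounts for OT-I cells. What each tool did, and its version, is not given in the sources used here. Tables of the 3 experiments list 15319, 19825 and 15216 genes, and the TIL and Bcl6 tables leave out genes whose counts sum to under 20. For the 5 genes, count over FPKM in the deposited files, taken relative to Id2, matched the relative length of all GENCODE M21 exons together.

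Counts were tested with the edgeR 4.0.16 quasi-likelihood test in R 4.3.3, two-sided, with TMM scaling, genes of a mean of at least 1 FPKM, and a Benjamini-Hochberg adjusted p under 0.05. All 6 TIL libraries entered 1 fit, and the OT-I experiments were fitted apart. The SE was found by dividing the size of the log2 fold change by the root of F, and 95% intervals follow from it. The test was checked on simulated data. Alternatives were DESeq2 1.42.0, limma 3.58.1 on log2(FPKM + 1) and log2(FPKM + 0.1), other scalings and filters, and leaving out each library. Depth was 18309162 to 22322079 counts per library.

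The members and lists were chosen with earlier results of these data known. Named list genes were up to 4 per list and comparison with the smallest p among those that passed, and the 3 genes most correlated with each member, without predicted gene models. A few more were picked once their values were known. Some genes that this rule names are not reported here.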

Additional observations from a re-analysis of the deposited data

How the results depend on the processing

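Values are log2 fold changes unless named as counts. With 2 libraries a group, calls with an adjusted p near 0.05 were unstable, and Id3 in TIM-3+ TILs rests on 12 and 7 reads. Id2 in the 3 TIL comparisons, Id3 and Tcf12 in the 2 with TIM-3+ TILs, and Id3 and Tcf3 with Bcl6 overexpression passed under all alternatives run. With no filter, Tcf3 in Bcl6+ against TIM-3+ TILs (0.482), Id3 (0.923) and Tcf12 (0.445) in Bcl6+ against DN TILs and Id2 with Bcl6 overexpression (-0.414) lost their call, and Tcf12 with Bcl6 overexpression gained one (0.517). With limma on log2(FPKM + 1) and log2(FPKM + 0.1), Tcf4 in Bcl6+ against TIM-3+ TILs (0.455 and 0.795), Tcf12 in Bcl6+ against DN TILs (0.371 and 0.447) and Id2 with Bcl6 overexpression (-0.418 and -0.419) lost theirs. With total count scaling the median of all genes moved to 0.198 in Bcl6+ against TIM-3+ TILs and -0.181 in TIM-3+ against DN TILs, and Tcf3 passed in the second (-0.511), by less relative to that median. The causes were not tested.

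With Prdm1 overexpression, Id3 passed with DESeq2 (-2.136), relative log expression scaling (-2.131), total count scaling (-2.184), and limma (-1.462 and -2.108). Id2, not called in any, changed sign with DESeq2 and relative log expression (-0.004 each), total counts (-0.061), no filter (-0.101), a minimum of 5 FPKM (-0.002) and limma (-0.14 in both). Genes called numbered 586 with DESeq2, 275 with relative log expression, 294 with total counts, 236 with upper quartile scaling, 44 with no filter and 244 with a minimum of 5 FPKM, against 135. With 1 FPKM added, the Id2 to Id3 balance moved to -6.032, 4.039 and -3.752 on the log2 scale for Bcl6+ against TIM-3+, TIM-3+ against DN and Bcl6-overexpressing against control cells.

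Leaving out each library gave ranges of 0.436 to 0.642 for Tcf3 and 0.709 to 1.164 for Tcf4 in Bcl6+ against TIM-3+ TILs, and of 0.706 to 1.16 for Id3 and 0.415 to 0.533 for Tcf12 in Bcl6+ against DN TILs. With Prdm1 overexpression they were -0.589 (without overexpressing replicate 1) to 0.423 for Id2 and -0.312 to 0.346 (without control replicate 1) for Tcf3. With Bcl6 overexpression they were -0.72 to -0.305 for Id2 and 0.259 to 0.557 for Tcf12. Genes called ranged over 735 to 1191 in Bcl6+ against DN TILs (735 and 766 without DN replicates 1 and 2), 1696 to 2229 in TIM-3+ against DN TILs (1696 and 1734 without DN replicates 1 and 2) and 3 to 643 with Prdm1 overexpression.

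Groups share replicate numbers, but nothing says that a number marks a shared animal. Same-numbered libraries deviated together with correlations of 0.017 to 0.039 among TILs, 0.27 with Prdm1 and -0.052 with Bcl6 overexpression. With the replicate block, Id3 in Bcl6+ against DN TILs was 0.948 (adjusted p = 0.0517), Id3 with Prdm1 overexpression was -2.109 (adjusted p = 0.00154), Id2 -0.039 and Tcf3 0.017 there, and 1659 genes were called in that experiment. The replicate block changed no other call of the 5 genes.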
